A study of Mus musculus with 14 samples.

Results

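Cell cycle and DNA replication genes were described in 14 mouse livers, 8 with acute liver failure (model) and 6 without (control). The 54 genes were listed by symbol: cyclins, cyclin-dependent kinases (Cdk) and their inhibitors, polo-like and Aurora kinases, E2F factors, replication enzymes and mitosis genes. Each symbol had 1 row in the count files, so all 54 were found among 55357 genes. They were sorted by the phase in which they act into 23 genes of G1 entry and its control, 14 of S phase and 17 of G2 and mitosis (M). All mice were male C57BL/6, 5 to 6 weeks old when bought. Model mice were injected into the peritoneum with lipopolysaccharide (LPS, part of the outer membrane of bacteria) at 10 µg/kg and D-galactosamine (D-GalN, an amino sugar toxic to hepatocytes) at 300 mg/kg. Control mice received saline, and livers were taken 24 h after the injection. LPS and D-GalN were always given together, so the part of each cannot be told apart. The labels do not say that each library is a separate animal, so p-values cover only the spread among the libraries at hand, which may be technical. In whole liver, fewer cells of a type and less RNA per cell cannot be told apart.

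A cell enters the cycle when D cyclins with Cdk4 or Cdk6, and then E cyclins with Cdk2, phosphorylate the retinoblastoma protein and free E2F factors to switch on S phase genes. Replication is licensed when Cdc6 and Cdt1 load the ring of Mcm2 to Mcm7 proteins on DNA, and geminin (Gmnn) holds Cdt1 back once replication has begun. Mitosis follows when Cdk1 with A and B cyclins, the polo-like kinase Plk1 and the Aurora kinases become active, and most of the genes for this step are silent in resting cells. Adult hepatocytes rest outside the cycle and can re-enter it after injury or loss of tissue.

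Promoters of cell cycle genes often carry motifs bound by the factors that time them. The 5 promoters printed were picked by name, each holds matches of the motifs below, and they do not stand for their classes. Sequences came from RefSeq promoters of build GRCm38.p6, cut to the 250 bases before the annotated start. Entries matched 43 of the 54 members, with 48 start sites in all. The motifs searched, on both strands, were the cell cycle homology region (CHR, TTTGAA), the CCAAT box (CCAAT), the E2F site (TTTCCCGC, TTTGGCGC, TTTCGCGC or TTTGCCGC), the cyclic AMP response element (CRE, TGACGTCA) and the AP-1 site (TGACTCA). The 5 sequences read 5′ to 3′ on the strand of the gene, and capitals mark motif matches. Ccnf lies at chr17:24251410-24251659 on the minus strand, Mki67 at chr7:135716380-135716629 (minus), Top2a at chr11:99024190-99024439 (minus), Mcm6 at chr1:128359706-128359955 (minus) and Plk2 at chr13:110394794-110395043 (plus).
Ccnf: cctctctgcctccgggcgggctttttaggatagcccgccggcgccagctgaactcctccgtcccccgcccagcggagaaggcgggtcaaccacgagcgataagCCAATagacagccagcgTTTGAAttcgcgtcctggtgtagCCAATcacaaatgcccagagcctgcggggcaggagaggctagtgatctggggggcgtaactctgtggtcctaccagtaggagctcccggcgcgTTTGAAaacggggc
Mki67: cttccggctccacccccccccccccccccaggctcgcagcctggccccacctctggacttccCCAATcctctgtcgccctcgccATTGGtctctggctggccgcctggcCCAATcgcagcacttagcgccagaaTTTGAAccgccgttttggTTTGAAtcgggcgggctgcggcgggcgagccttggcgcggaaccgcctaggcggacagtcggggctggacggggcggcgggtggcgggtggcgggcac
Top2a: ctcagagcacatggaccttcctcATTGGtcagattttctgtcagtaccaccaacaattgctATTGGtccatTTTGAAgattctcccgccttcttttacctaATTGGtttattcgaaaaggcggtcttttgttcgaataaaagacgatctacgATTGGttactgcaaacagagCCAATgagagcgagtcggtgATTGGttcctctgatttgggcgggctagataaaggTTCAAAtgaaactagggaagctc
Mcm6: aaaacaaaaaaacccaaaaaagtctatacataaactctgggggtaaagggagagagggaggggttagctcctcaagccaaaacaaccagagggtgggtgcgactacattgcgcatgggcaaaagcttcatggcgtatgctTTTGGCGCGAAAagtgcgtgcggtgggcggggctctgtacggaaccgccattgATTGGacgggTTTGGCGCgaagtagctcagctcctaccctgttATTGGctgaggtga
Plk2: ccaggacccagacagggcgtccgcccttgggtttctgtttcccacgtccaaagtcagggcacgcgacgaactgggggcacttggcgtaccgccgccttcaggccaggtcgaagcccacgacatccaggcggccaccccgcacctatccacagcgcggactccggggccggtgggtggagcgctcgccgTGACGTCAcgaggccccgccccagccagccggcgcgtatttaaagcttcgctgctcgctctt
In the promoter of Ccnf, a CHR lay 14 to 9 bases before the start and another at 130 to 125 bases, between CCAAT boxes at 147 to 143 and 107 to 103 bases. Mki67, which encodes a coat protein of mitotic chromosomes, had CHR matches at 116 to 111 and 98 to 93 bases. Top2a, the topoisomerase that untangles replicated chromosomes, had 6 CCAAT boxes and CHR matches at 179 to 174 and 23 to 18 bases. In Mcm6, a subunit of the replicative helicase, E2F matches at 110 to 103 and 106 to 99 bases overlapped, and another lay at 47 to 40 bases. Plk2, a polo-like kinase induced by stress and growth signals, had a CRE at 62 to 55 bases.

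Over the promoters of the members, a CHR was found in 10 of 48 (20.8%), against 16% of the 32851 promoters of the table. A CCAAT box was found in 31 of 48 (64.6%, against 33.8%), an E2F site in 9 (18.8%, against 1.86%), a CRE in 2 (4.17%, against 1.55%) and an AP-1 site in 0 (against 4.46%). Among the 14 M promoters, 6 held a CHR and 12 a CCAAT box, and 1 held an E2F site. Among the 13 S promoters, 1 held a CHR, 9 a CCAAT box and 4 an E2F site. Among the 21 G1 promoters, the numbers were 3, 10 and 4. An E2F site was found in 0 of 14 promoters of higher members, in 1 of 7 of lower members and in 6 of 20 of members that were not called. A CHR was found in 3 of 14, 1 of 7 and 6 of 20, and a CCAAT box in 10, 3 and 13 of them. A match is a description of letters and not a site shown to be used.

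Totals of counts in genes were 7914120 to 14463540 in the control libraries and 10329469 to 16639972 in the model libraries, so genes under 1 CPM rest on few reads. The tissue showed the transcripts of hepatocytes, with 6 hepatocyte markers summing to 47610 to 66450 CPM in controls and 72630 to 82190 CPM in model livers. Each value below is a count scaled to the library (CPM, the usual scale of read counts, with TMM factors), and calls were made at adjusted p values under 0.05 in edgeR's quasi-likelihood test over 12915 genes. Of the 54 members, 45 had enough counts to be tested. Of these 45, 15 were higher in model livers, 8 were lower and 22 were not called. This made 51.1% called, against 47.9% of all genes tested, a share near the background. The higher share was 33.3% against 26.6% of all genes, and the lower share 17.8% against 21.3%. The control and model ranges were separate for 8 higher and 4 lower members, where 14.6% and 8.63% of all genes tested (23.2% in either direction) had separate ranges. The median log2 fold change of the tested members was 0.17, and that of all genes tested was 0.0099. Of the 45, 35 had enough counts for the test in the controls alone and 3 over both groups together. The other 7 (E2f2, Mcm4, Bub1b, Cdc25b, Mki67, Top2a and Ccna2) had enough in the model libraries and not in the controls, and all but Ccna2 were called higher. The shares above therefore describe the list and are no evidence about it. A missing call does not show that the groups were alike.

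**Figure D1:**
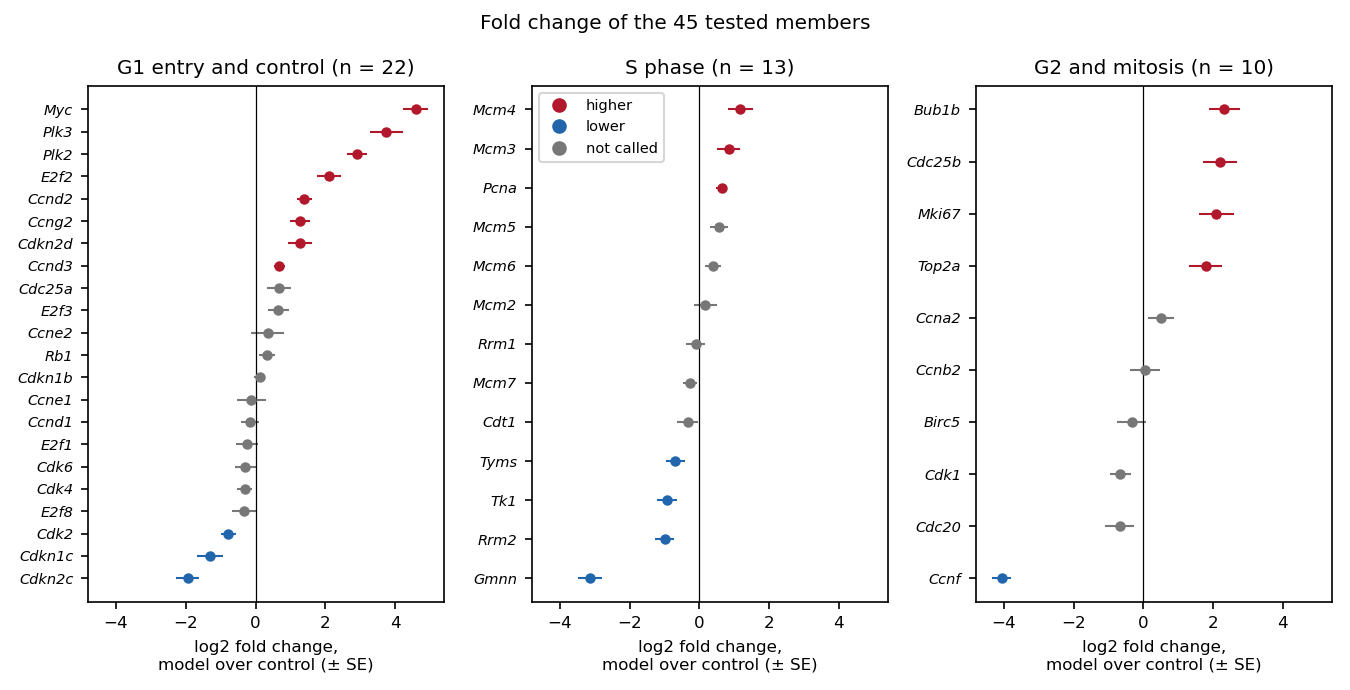
Log2 fold change of model over control livers for the 45 tested members, in 3 panels by phase, with bars of ± 1 standard error; red points were called higher, blue points lower and grey points not called. Myc, Plk3 and Plk2 lie at 2.90 or more on the right of the G1 panel, and Gmnn at −3.14 and Ccnf at −4.07 lie on the left of the S and M panels.

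By phase, 8 of 22 tested G1 members were higher (36.4%) and 3 lower (13.6%), and their median log2 fold change was 0.34. Of 13 tested S members, 3 were higher (23.1%) and 4 lower (30.8%), with a median of −0.10. Of 10 tested M members, 4 were higher (40%) and 1 lower (10%), with a median of 0.27. Of all genes tested, 26.6% were higher and 21.3% lower. The shares called, 50% in G1, 53.85% in S and 50% in M, were near the 47.9% of all genes tested. All 4 higher M members entered the test through the model libraries, as did E2f2 in G1 and Mcm4 in S. The filter thus favoured a rise in them. A few genes carried the sums. The summed level of the G1 members was 174 to 208 CPM in controls and 337 to 631 CPM in model livers, and without Myc, Plk2 and Plk3 it was 151 to 194 and 186 to 225 CPM. The summed level of the S members was 88.3 to 117.5 CPM in controls and 75.5 to 95.7 CPM in model livers, and without Gmnn the groups were at 77.95 to 88.0 and 73.1 to 92.2 CPM. The M members summed to 22.6 to 39.8 CPM in controls and 16.3 to 27.5 CPM in model livers. Without Ccnf, the order of the M sums turned round, with 7.23 to 17.6 CPM in controls and 15.02 to 25.7 CPM in model livers. Ccnf was the only M member called lower, so the rest still held the 4 higher ones. Mean levels of these 4 were 0.346 to 0.871 CPM in controls and 1.80 to 3.275 CPM in model livers. The 5 other tested M members were not called, so the sums without Ccnf do not show that the rest of the class rose. These sums are descriptions and were not tested.

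The largest rises were those of early growth and stress genes of G1. Myc, a transcription factor that drives growth and cycle entry, was at 1.48, 2.18 and 4.71 CPM (lowest, median and highest) in controls and at 31.5, 62.4 and 104 CPM in model livers. Every model library was above every control library. The fitted rise was 24.1-fold (log2 4.59, SE 0.36, adjusted p = 1.19e-08 in edgeR). Plk3, a stress-responsive polo-like kinase, was at 6.68, 14.0 and 22.7 CPM in controls and at 35.7, 204 and 330 CPM in model livers. Its groups did not overlap, but the model livers spread over a wide range, with model 4 lowest and model 6 highest. The rise of Plk3 was 13.5-fold (log2 3.75, SE 0.48, adjusted p = 4.95e-06 in edgeR). Plk2 was at 3.46, 6.57 and 9.19 CPM in controls and at 27.2, 43.6 and 75.2 CPM in model livers, again without overlap. It rose 7.48-fold (log2 2.90, SE 0.29, adjusted p = 2.58e-07 in edgeR). For Plk2, model 3 was highest and model 6 lowest, whereas model 6 was highest for Plk3. The ratio of Plk2 to Plk3 differed by −0.69 between groups on the log2 scale and did not pass (adjusted p = 0.420 in the exact permutation test), but passed without models 3 and 4 (adjusted p = 0.0379). Per kilobase of exonic length, the mean level in model livers was 71.9 CPM for Plk3, 23.1 CPM for Myc and 10.5 CPM for Plk2, against 5.32, 0.949 and 1.40 CPM in controls.

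The 3 D cyclins, which carry growth signals to Cdk4 and Cdk6, did not move alike. Ccnd2 was at 2.86, 5.76 and 6.95 CPM in controls and at 10.3, 14.7 and 17.8 CPM in model livers, with no overlap. It rose 2.64-fold (log2 1.40, SE 0.22, adjusted p = 4.23e-05 in edgeR). Ccnd3 was at 14.9, 20.5 and 25.7 CPM in controls and at 28.0, 32.0 and 40.5 CPM in model livers. Its groups were separate too, and it rose by 0.69 on the log2 scale (SE 0.16, adjusted p = 0.00212 in edgeR). The call of Ccnd3 was lost with scaling by library totals (log2 0.43, adjusted p = 0.0849 in edgeR) and with an offset for exonic length and GC content (0.39, adjusted p = 0.0873 in edgeR). Ccnd1, the D cyclin best known from regenerating liver, was at 10.9, 16.6 and 32.6 CPM in controls and at 11.2, 13.9 and 29.5 CPM in model livers. The ranges lay on each other, and the log2 difference was −0.16 (SE 0.27, adjusted p = 0.639 in edgeR). Exons of Ccnd1 share 23.4% of their length with LTO1 on the other strand in GENCODE M21. How reads in that shared part were counted is not known. Ccnd2 shares 3.91% and 3.95% with the antisense genes 9330179D12Rik and Gm43126, and Ccnd3 4.11% with Bysl.

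The mix of D cyclins differed between the groups. In controls, the log2 ratio of Ccnd1 to Ccnd2 was 1.71 ± 0.411 (SD, n = 6), and in model livers it was 0.15 ± 0.314 (SD, n = 8). The difference of −1.56 had a two-sided exact permutation p of 0.000333, the smallest that the assignments of 14 libraries to groups of 8 and 6 allow. It was 0.00167 after adjustment over the 10 pairs of related members tested, of which 7 passed. The pairs were chosen with earlier results of these data known, so the p-values of all ratios describe the pairs and are no independent evidence. The ratio of Ccnd1 to Ccnd3 fell by 0.85 (exact permutation p = 0.0177, adjusted 0.0294), and the ratio of Ccnd2 to Ccnd3 was higher by 0.71 (exact permutation p = 0.00699, adjusted 0.0175). Per kilobase of exonic length, the control means were 3.94 CPM for Ccnd1, 2.31 CPM for Ccnd3 and 0.579 CPM for Ccnd2. In model livers, Ccnd3 at 3.71 CPM and Ccnd1 at 3.53 CPM were close, and Ccnd2 was at 1.53 CPM. The call of the Ccnd1 to Ccnd3 ratio was lost without control 4, control 6, model 2, model 4 or model 5 (adjusted p up to 0.0711).

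**Figure D2:**
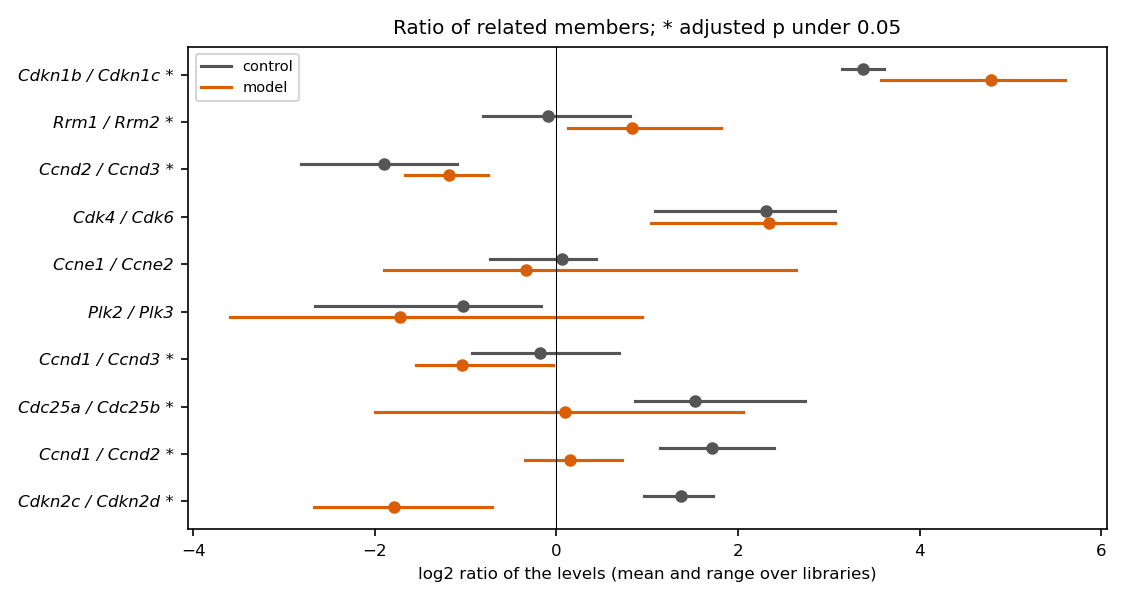
Log2 ratio of the levels of 10 pairs of related members, with points at the mean and lines over the range of 6 control (grey) and 8 model (orange) libraries; a star marks an adjusted p under 0.05. The ratio of Cdkn2c to Cdkn2d moved farthest, from 1.37 to −1.79, and the ranges of Ccnd1 to Ccnd2 do not touch. The pairs were chosen with earlier results of these data known.

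Of the kinases of the G1 class that act with cyclins, Cdk2 fell, and Cdk4 and Cdk6, the partners of D cyclins, were not called. Cdk4 was at 34.0, 50.6 and 66.3 CPM in controls and at 20.3, 41.0 and 51.5 CPM in model livers, with overlap and no call (log2 −0.31, SE 0.21, adjusted p = 0.244 in edgeR). Cdk4 shares 19.7% of its exonic length with Tspan31 on the other strand. Cdk6 was at 9.96 ± 3.36 CPM in controls (SD, n = 6) and 8.14 ± 3.78 CPM in model livers (SD, n = 8), and it was called lower only with the length and GC offset (log2 −0.61, adjusted p = 0.00901 in edgeR). The ratio of Cdk4 to Cdk6 differed by 0.04 between groups, with an adjusted p of 0.940 in the exact permutation test. Cdk2, the partner of E and A cyclins, was at 6.81, 8.06 and 10.7 CPM in controls and at 2.35, 4.99 and 6.55 CPM in model livers. All 8 model libraries were below all controls, and Cdk2 fell by 0.78 on the log2 scale (SE 0.22, adjusted p = 0.00751 in edgeR).

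The E cyclins, which start S phase with Cdk2, were not called and spread widely among the model livers. Ccne1 was at 2.13, 2.56 and 3.98 CPM in controls and at 0.852, 1.86 and 4.95 CPM in model livers (log2 −0.12, SE 0.41, adjusted p = 0.824 in edgeR). Models 1 to 4 lay at 0.852 to 1.27 CPM, below every control, and models 5 to 8 at 2.45 to 4.95 CPM. Ccne2 was at 1.54, 2.72 and 3.96 CPM in controls and at 0.552, 2.81 and 9.49 CPM in model livers (log2 0.35, SE 0.47, adjusted p = 0.569 in edgeR). Model 8 was lowest and model 5 highest for Ccne2. The ratio of Ccne1 to Ccne2 did not pass (log2 −0.40, exact permutation p = 0.589, adjusted 0.655), and without models 7 and 8 it differed by −1.26 (adjusted p = 0.0108 in the exact permutation test). Ccne2 shares 17.4% of its exonic length with Ints8 on the other strand. Ccng2, an atypical cyclin linked with arrest of the cycle, was at 8.37, 12.0 and 19.9 CPM in controls and at 11.7, 31.8 and 48.7 CPM in model livers. It was above every control in 7 of 8 model libraries (log2 1.29, SE 0.28, adjusted p = 0.00116 in edgeR).

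The Cdk inhibitors went in both directions. Cdkn2c, which encodes the Cdk4 and Cdk6 inhibitor p18, was at 4.09, 9.34 and 11.5 CPM in controls and at 0.656, 2.01 and 3.84 CPM in model livers, with no overlap. It was 3.86-fold lower (log2 −1.95, SE 0.34, adjusted p = 0.000145 in edgeR). Its relative Cdkn2d, which encodes p19, was at 1.54, 3.40 and 4.99 CPM in controls and at 2.69, 8.33 and 11.6 CPM in model livers. Cdkn2d was above every control in 7 of 8 model libraries and rose by 1.27 on the log2 scale (SE 0.35, adjusted p = 0.00573 in edgeR). The log2 ratio of Cdkn2c to Cdkn2d was 1.37 ± 0.288 in controls (SD, n = 6) and −1.79 ± 0.667 in model livers (SD, n = 8), a change of −3.17 with an exact permutation p of 0.000333 (adjusted 0.00167). Cdkn1c, which encodes p57, was at 1.07, 1.52 and 1.70 CPM in controls and at 0.157, 0.450 and 1.14 CPM in model livers, below every control in 7 of 8. It fell by 1.31 on the log2 scale (SE 0.38, adjusted p = 0.00802 in edgeR), and 30.7% of its exonic length lies over Gm44732 on the other strand. Cdkn1b, which encodes p27 and holds resting cells out of the cycle, was at 14.7, 16.5 and 19.8 CPM in controls and at 14.8, 17.1 and 21.8 CPM in model livers (log2 0.12, SE 0.17, adjusted p = 0.580 in edgeR). The ratio of Cdkn1b to Cdkn1c was higher in model livers by 1.41 on the log2 scale (exact permutation p = 0.00167, adjusted 0.00555).

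Of the tested E2F genes, Rb1 and Cdc25a, which act at the G1 to S step, E2f2 alone was called. It had enough counts for the test in 8 model libraries and in 2 controls, so it entered through the model group, and it was also called without a filter. E2f2, an activating E2F, was at 0.318, 0.672 and 0.771 CPM in controls and at 1.17, 2.54 and 5.36 CPM in model livers. No model library reached down to the controls, and E2f2 rose 4.31-fold (log2 2.11, SE 0.34, adjusted p = 6.6e-05 in edgeR). E2f1, the first activating E2F, was at 2.41 ± 0.630 CPM in controls (SD, n = 6) and 2.04 ± 0.882 CPM in model livers (SD, n = 8) and was not called (adjusted p = 0.554 in edgeR). E2f3 was at 4.37 ± 0.899 and 6.89 ± 3.31 CPM (log2 0.66, SE 0.31, adjusted p = 0.0924 in edgeR). It was called without model 3 (0.76, adjusted p = 0.0462 in edgeR) or model 4 (0.79, adjusted p = 0.0258 in edgeR). E2f8, a repressing E2F with 11.2% of its exonic length over Gm2788, was at 1.76 ± 0.705 and 1.40 ± 0.588 CPM (adjusted p = 0.439 in edgeR). E2f7, its partner in repression, was not tested and held 9 counts over the controls and 41 over the model livers. Rb1, the retinoblastoma gene, was at 4.82 ± 1.63 and 6.11 ± 1.45 CPM and was not called (adjusted p = 0.260 in edgeR). Rb1 shares exons with Rcbtb2 and Lpar6 on the other strand. Cdc25a, the phosphatase that activates Cdk2, was at 1.03, 1.39 and 2.12 CPM in controls and at 1.04, 1.93 and 4.23 CPM in model livers (log2 0.66, SE 0.34, adjusted p = 0.122 in edgeR).

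**Figure D3:**
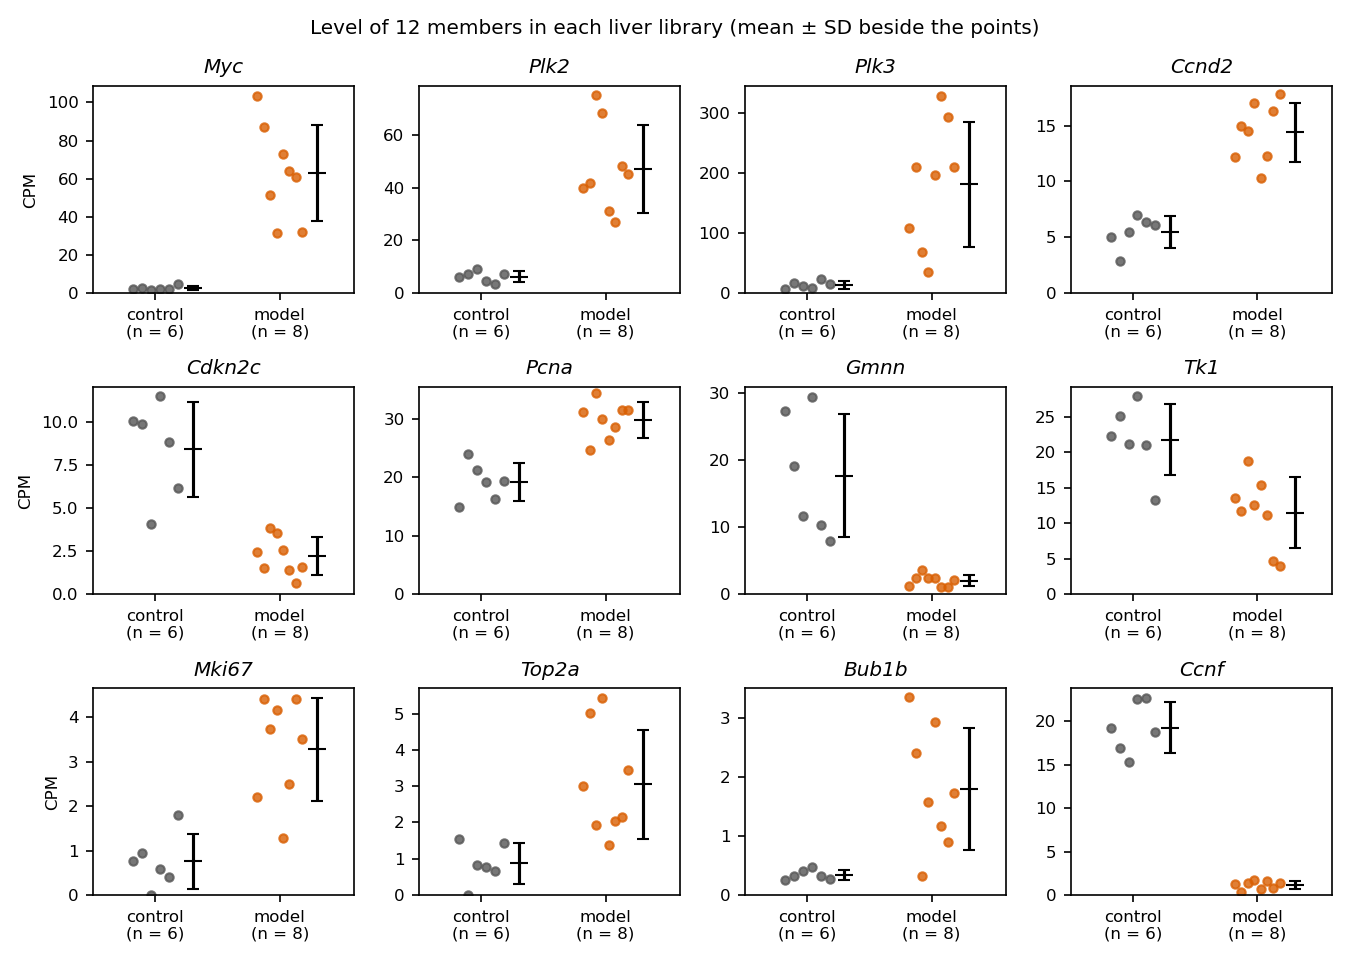
CPM of 12 members in each library, 6 control (grey) and 8 model (orange), with the mean ± SD beside the points; each panel has its own axis from 0. Ccnf, Gmnn and Cdkn2c are lower in all 8 model libraries, and Myc, Plk2, Plk3, Ccnd2 and Pcna are higher in all 8.

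In S phase, the licensing inhibitor Gmnn and 3 of 4 genes of nucleotide supply were called lower, and Pcna, Mcm3 and Mcm4 higher. For comparison, 21.3% of all genes tested were lower and 26.6% higher. Gmnn was at 7.88, 15.4 and 29.5 CPM in controls and at 1.01, 2.24 and 3.52 CPM in model livers. Controls 1, 2 and 4 held the high values, from 19.2 to 29.5 CPM, and no model library reached the lowest control. Gmnn was 8.79-fold lower (log2 −3.14, SE 0.35, adjusted p = 1.19e-06 in edgeR), with 1166 counts over the controls and 196 over the model livers. Its target Cdt1, which loads the Mcm ring, was at 1.68 ± 0.408 CPM in controls (SD, n = 6) and 1.32 ± 0.613 CPM in model livers (SD, n = 8) and was not called (log2 −0.34, SE 0.31, adjusted p = 0.381 in edgeR). Cdc6, the other loader, was not tested, with 10 and 37 counts in all.

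Pcna, the sliding clamp of DNA polymerase that also serves in repair, was at 14.9, 19.2 and 24.0 CPM in controls and at 24.6, 30.5 and 34.4 CPM in model livers. The groups met closely but did not overlap, and Pcna rose by 0.63 on the log2 scale (SE 0.16, adjusted p = 0.00339 in edgeR). Mcm4 was at 0.642, 1.73 and 4.05 CPM in controls and at 2.66, 4.24 and 5.68 CPM in model livers, with 4 of 8 above every control. It rose by 1.17 (SE 0.36, adjusted p = 0.0123 in edgeR), and it too entered the test through the model libraries, with 4 controls at the level needed. Scaling by library totals ended both calls (Pcna 0.39, adjusted p = 0.0886, and Mcm4 0.88, adjusted p = 0.0880, both in edgeR).

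Mcm3 was at 1.49, 2.42 and 3.83 CPM in controls and at 2.20, 4.29 and 8.53 CPM in model livers, and it was called by a narrow margin (log2 0.84, SE 0.33, adjusted p = 0.0411 in edgeR). That call was kept in 8 of 24 alternatives. It was lost without control 1, 2, 3 or 4 and without model 2, 4, 6, 7 or 8 (adjusted p up to 0.0957 in edgeR). The other Mcm genes were not called. The log2 difference was 0.57 for Mcm5 (adjusted p = 0.0742, and 0.0490 without model 5) and 0.17 for Mcm2 (adjusted p = 0.702), both in edgeR. Mcm6 was at 2.02, 3.71 and 5.09 CPM in controls and at 3.70, 4.58 and 6.19 CPM in model livers, with overlap (log2 0.39, SE 0.23, adjusted p = 0.177 in edgeR). Mcm7 was at 6.56, 8.30 and 9.65 CPM in controls and at 4.48, 6.53 and 9.54 CPM in model livers, also with overlap (log2 −0.27, SE 0.20, adjusted p = 0.277 in edgeR). Of the 6 subunits of the ring, 2 were called higher (33.3%, against 26.6% of all genes tested) and 0 lower (against 21.3%). With library totals, neither Mcm3 nor Mcm4 was called. Mcm7 shares 7.25% of its exonic length with Ap4m1 on the other strand and some with Cops6. Per kilobase of exonic length, the 6 Mcm genes were at 0.301 to 1.86 CPM in controls and 0.345 to 1.55 CPM in model livers, with Mcm2 lowest and Mcm7 highest in both groups.

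Of 4 genes for making deoxynucleotides, 3 were called lower (75%, against 21.3% of all genes tested) and Rrm1 was not called. With 4 genes, this share is a description of the list. Rrm2, the small subunit of ribonucleotide reductase and the one made in S phase, was at 3.63, 4.88 and 7.43 CPM in controls and at 1.20, 2.49 and 4.35 CPM in model livers. It was below every control in 7 of 8 model libraries (log2 −0.99, SE 0.27, adjusted p = 0.00497 in edgeR). Tk1, thymidine kinase, was at 13.2, 21.7 and 28.0 CPM in controls and at 4.00, 12.1 and 18.8 CPM in model livers. Models 7 and 8 were lowest, at 4.71 and 4.00 CPM, and the ranges overlapped (log2 −0.93, SE 0.30, adjusted p = 0.0167 in edgeR). Tyms, thymidylate synthase, was at 5.14, 8.64 and 12.6 CPM in controls and at 2.62, 4.90 and 8.12 CPM in model livers (log2 −0.69, SE 0.27, adjusted p = 0.0454 in edgeR). The call of Tyms was kept in 11 of 24 alternatives and was lost without control 1, 2, 4 or 5 and without model 4, 6, 7 or 8 (adjusted p up to 0.122 in edgeR). It was also lost with the length and GC offset. Rrm1, the large subunit, was at 2.86, 4.73 and 8.86 CPM in controls and at 2.66, 4.86 and 6.49 CPM in model livers (log2 −0.10, SE 0.27, adjusted p = 0.782 in edgeR). The ratio of Rrm1 to Rrm2 was higher in model livers by 0.93 (exact permutation p = 0.0173, adjusted 0.0294). It did not pass without control 1, 2 or 4, without model 2 or 4, or without models 3 and 4 or 7 and 8 together (adjusted p up to 0.0712).

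**Figure D4:**
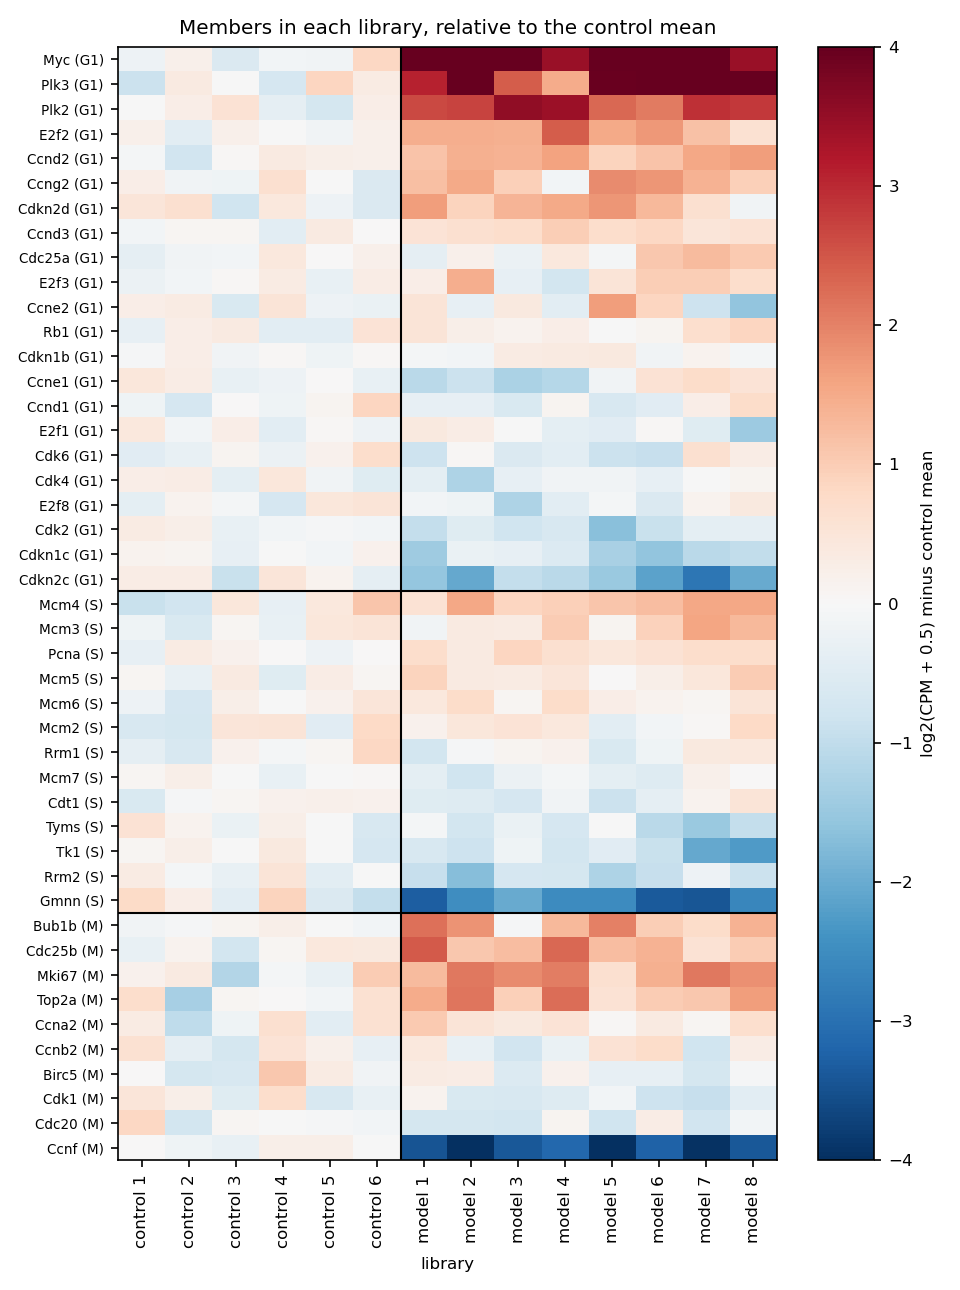
Log2(CPM + 0.5) of the 45 tested members in each library minus the mean of the 6 controls, with members ordered by fold change within G1, S and M; red is above and blue below the control mean, and the scale ends at −4 and 4. The rows of Ccnf and Gmnn are blue in all 8 model libraries, and the rows of Ccne1, Ccne2 and E2f3 change colour among model libraries.

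In the M class, Ccnf was called lower and Bub1b, Cdc25b, Mki67 and Top2a higher. The 4 higher genes had enough counts for the test in the model libraries alone. A gene needed 0.796 CPM in 6 libraries, which Bub1b reached in 0 controls, Cdc25b and Mki67 in 2 and Top2a in 3, so the choice of genes to test favoured a rise in them. All 4 were also called when no filter was applied. Ccnf, an F-box cyclin that directs proteins such as Rrm2 to degradation in G2, was at 15.3, 19.1 and 22.7 CPM in controls and at 0.401, 1.33 and 1.74 CPM in model livers. The lowest control was far above the highest model library. Ccnf was 16.7-fold lower (log2 −4.07, SE 0.28, adjusted p = 2.42e-09 in edgeR), with 1423 counts over the controls and 113 over the model livers. In every alternative it stayed between −4.33 and −3.98 on the log2 scale. Per kilobase of exonic length, the control level of Ccnf was 2.47 CPM and that of the mitotic cyclins Ccnb1, Ccna2 and Ccnb2 was 0.12 to 0.769 CPM.

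Mki67 was at 0, 0.675 and 1.81 CPM in controls and at 1.27, 3.62 and 4.41 CPM in model livers. Control 3 held no count and control 6 was highest, and 7 of 8 model libraries were above every control. Mki67 rose by 2.10 on the log2 scale (SE 0.51, adjusted p = 0.00255 in edgeR), on 59 counts over the controls and 345 over the model livers. Without control 6 the value was 2.74 (adjusted p = 0.000387 in edgeR), and with limma-voom it was 2.80 (adjusted p = 0.00222). Top2a was at 0, 0.801 and 1.54 CPM in controls and at 1.37, 2.58 and 5.43 CPM in model livers, again above every control in 7 of 8 (log2 1.79, SE 0.47, adjusted p = 0.00446 in edgeR).

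Bub1b, a kinase-like protein of the spindle checkpoint, was at 0.257, 0.324 and 0.482 CPM in controls and at 0.320, 1.66 and 3.36 CPM in model livers, with model 3 among the controls. It rose by 2.33 on the log2 scale (SE 0.45, adjusted p = 0.000376 in edgeR), on 26 and 174 counts. Cdc25b, a phosphatase that activates Cdk1 in G2, was at 0.0592, 0.506 and 0.742 CPM in controls and at 0.894, 1.68 and 4.63 CPM in model livers, with no overlap. It rose by 2.21 (SE 0.48, adjusted p = 0.00109 in edgeR). The ratio of Cdc25a to Cdc25b fell by 1.43 (exact permutation p = 0.0306, adjusted 0.0438). That call was lost without control 1, 2, 3, 4 or 6 and without model 1, 2, 3, 4 or 5 (adjusted p up to 0.116).

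Cdk1 and the A and B cyclins that were tested were not called. Cdk1, the mitotic kinase, was at 1.48, 2.60 and 4.53 CPM in controls and at 1.13, 1.60 and 2.89 CPM in model livers (log2 −0.66, SE 0.30, adjusted p = 0.0820 in edgeR). It was called lower with library totals (−0.86, adjusted p = 0.0128) and upper-quartile factors (−0.80, adjusted p = 0.0356), without control 5 (−0.79, adjusted p = 0.0444) and without model 1 (−0.78, adjusted p = 0.0431), all in edgeR. Ccna2, the cyclin of S and G2, was at 0.212, 1.03 and 1.74 CPM in controls and at 0.979, 1.46 and 2.43 CPM in model livers (log2 0.50, SE 0.37, adjusted p = 0.275 in edgeR). Ccna2 shares 12.5% of its exonic length with Exosc9 on the other strand. Ccnb2 was at 1.18 ± 0.611 CPM in controls (SD, n = 6) and 1.19 ± 0.656 CPM in model livers (SD, n = 8), and it was not called (log2 0.04, SE 0.42, adjusted p = 0.939 in edgeR). Its sign turned with the scaling, to −0.16 with library totals.

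Cdc20, which activates the anaphase-promoting complex, was at 0.942 ± 0.531 and 0.563 ± 0.356 CPM (adjusted p = 0.195 in edgeR). Birc5, the survivin gene of the chromosomal passenger complex, was at 1.15 ± 0.842 and 0.905 ± 0.374 CPM (adjusted p = 0.532 in edgeR). The other 7 M members had too few counts for the test. Among them, Aurka was at 0.970 CPM on average in controls and 0.690 CPM in model livers, Ccnb1 at 0.508 and 0.606 CPM, Aurkb at 0.295 and 0.446 CPM and the checkpoint kinase Bub1 at 0.270 and 0.347 CPM. Plk1 was at 0.227 and 0.573 CPM, the mitotic transcription factor Foxm1 at 0.246 and 0.539 CPM and Mybl2, which acts with it, at 0.221 and 0.814 CPM. Plk1 was above every control in 7 of 8 model libraries, on 17 and 58 counts. When low counts were not filtered, or with DESeq2, Plk1 and Mybl2 were called higher, and with DESeq2 E2f7 was too. Smaller overlaps with a gene on the other strand were those of Plk1 (7.09% of its exonic length), Plk3 (3.32%), Cdc20 (2.84%), Cdk6 (2.63%), Cdc25b (2.47%), Tk1 (1.6%), E2f7 (0.955%) and Cdk2 (0.547%).

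Other genes of the same steps were read for comparison. Of 167 such genes, 117 were tested, and 21 were higher and 34 lower in model livers (median log2 fold change −0.25). The higher share was 17.95% against 26.6% of all genes tested, and the lower share 29.1% against 21.3%. Of 40 tested genes of the replication machinery, 4 were higher (10%) and 15 lower (37.5%). Of 31 tested mitosis genes, 4 were higher (12.9%) and 5 lower (16.1%), and of 46 tested genes of G1 and checkpoints, 13 were higher (28.3%) and 14 lower (30.4%). The 4 higher mitosis genes (Kif20a, Nusap1, Tpx2 and Ube2c) had control minima of 0 to 0.318 CPM and could not enter the test through the controls alone. Neither could Uhrf1, Dnmt1, Timeless and Cdkn1a, all called higher. Chek2, called lower, was at most at 0.690 CPM in model livers and entered through the controls. These shares therefore describe the lists and are no evidence about them. The row of Mcm10, a replication factor, was at 161 ± 53.7 CPM in controls (SD, n = 6), a high level for such a gene in resting liver that could not be checked against the annotation used for counting. It was at 13.3 ± 11.0 CPM in model livers (SD, n = 8; log2 −3.61, adjusted p = 1.18e-05 in edgeR). Cenpa, the histone of centromeres, fell by 2.35 (adjusted p = 1.48e-05 in edgeR), Nek2, a centrosome kinase, fell by 2.07 (adjusted p = 0.000397) and Rpa3, a subunit of the protein that coats single-stranded DNA, fell by 1.70 (adjusted p = 0.00146). Tpx2, a spindle assembly factor, rose by 2.42 (adjusted p = 0.00108 in edgeR), the maintenance methyltransferase Dnmt1 by 1.67 (adjusted p = 0.0343) and the fork protein Timeless by 1.54 (adjusted p = 0.000403). The largest rises of the comparison genes were those of Cdkn1a, which encodes the Cdk inhibitor p21, and of the stress gene Gadd45b, at log2 7.03 (adjusted p = 3.05e-09) and 6.65 (adjusted p = 3.79e-09) in edgeR. Mycl, a relative of Myc, fell by 3.63 (adjusted p = 9.93e-08 in edgeR), and the checkpoint kinase Chek2 fell by 2.33 (adjusted p = 7.92e-06).

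Markers of other cells moved between the groups. All 10 neutrophil markers were higher in model livers (summed level 3.79 to 16.7 CPM in controls and 1238 to 2868 CPM in model livers), and Ly6g had no count in controls. Of the granulocyte precursor genes, Elane, Mpo and Ctsg had too few counts, Prtn3 was lower, and the 4 summed to 0.948 to 7.75 CPM in controls and 0.483 to 2.34 CPM in model livers. All 5 monocyte markers were higher (118.8 to 325.5 and 304 to 544 CPM). Of 6 tested erythroid genes, 5 were higher and Klf1 lower (428.9 to 1598 and 1209 to 25510 CPM). All 4 cholangiocyte markers were higher (2.39 to 4.16 and 24.5 to 65.9 CPM), as were 4 of 5 tested T or NK cell markers (2.67 to 5.14 and 5.19 to 13.1 CPM). Of 5 stellate cell markers, 4 were higher and Lrat lower (120.5 to 168.7 and 281.8 to 581.4 CPM). Of 5 Kupffer cell markers 2 were higher and 2 lower (176.8 to 264.9 and 185.3 to 407.7 CPM), as were 2 and 2 of 5 sinusoidal endothelium markers (89.2 to 155.7 and 143.2 to 270.5 CPM). None of 3 tested B or plasma cell markers was called (3.44 to 8.74 and 2.86 to 9.43 CPM), and of 6 hepatocyte markers Alb was higher. The part of these cells in the values of Mki67, Top2a and the other members was not tested.

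Exonic length moved with the fold changes of all genes and was read beside the members. Over 12899 genes, Spearman's rho of exonic length and log2 fold change was 0.15, and over the 45 members it was 0.13, as a description with no p. The median log2 fold change of all genes went from −0.23 in the shortest of 5 equal classes of length to 0.28 in the longest. The members called higher had a median exonic length of 4275 bases, those called lower 3984 bases and all genes tested 4171 bases. Gmnn is short, at 1465 bases, and Ccnf is long, at 7800 bases. With an offset for length and GC content, Gmnn was at −2.80 and Ccnf at −4.33 on the log2 scale, and Mki67, of 10061 bases, was at 1.92.

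**Figure D5:**
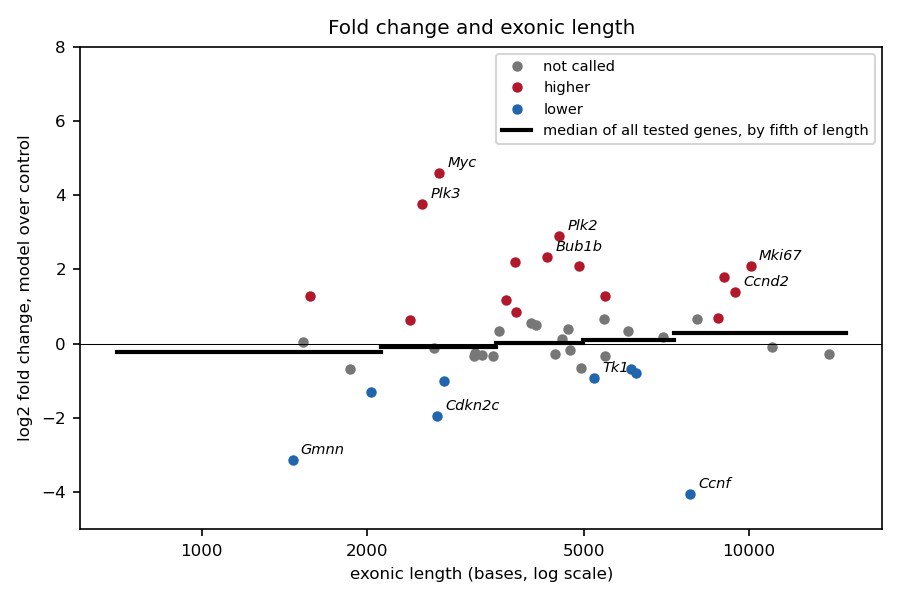
Log2 fold change of each tested member against its exonic length (log scale), with black lines at the median of all genes tested in each of 5 equal classes of length. The black lines climb from −0.23 to 0.28, and Ccnf (7800 bases) and Gmnn (1465 bases) lie far below them.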

How the data were processed

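Liver RNA of 14 libraries (8 model, 6 control) was enriched for polyadenylated molecules and sequenced, per the labels' protocols. The deposited values are raw counts of reads per gene, 1 file per library. HISAT2 and the mouse build GRCm39 are named for alignment, per the submitters' processing notes. Which counter was used, with which strand setting and annotation, and the version of HISAT2 are not given in the sources here. Without a known strand setting, it cannot be said how reads in the bases shared by genes on opposite strands were counted. Summary lines that name no gene held 27.4% to 45.6% of the entries of a library and were left out.

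The members, phases, lists and pairs were chosen with earlier results of these data known. Groups follow the labels. Genes were kept with filterByExpr, scaled with TMM and tested with edgeR 4.0.16 (robust quasi-likelihood fit, group as the only term; R 4.3.3), with Benjamini-Hochberg adjustment over 12915 genes. An SE was taken as log2 fold change over the root of the F statistic. Ratios of pairs used log2 CPM with a prior count of 2 and a two-sided exact permutation test over all assignments of the libraries to groups of 8 and 6. Of 14 listed pairs, 10 had both genes tested. Full statistics are given for up to 5 called members per phase and direction, by smallest p, and up to 3 uncalled members by highest level, among those of at least 1 CPM in a group. From each comparison list come the called genes with the largest change at 2 CPM or more. Further members were given by their values, some of them also with log2 fold change, SE and adjusted p. Exonic lengths and overlaps came from GENCODE M21 (GRCm38), matched by identifier for 99.9% of tested genes. The fits were checked on simulated data first. Libraries of the same group differed by more than sampling noise (smallest chi-square per degree of freedom 23.3 over 43 pairs). Alternatives were other scaling factors, no filter, DESeq2 1.42.0, limma-voom (limma 3.58.1), a length and GC offset, the replicate block and leaving out libraries.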

Additional observations from a re-analysis of the deposited data

Results flagged for a closer look

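Each of 90 groups of values, the 45 tested members in each group of libraries, was read for a library far from the others of its group. By the critical value used, chance marks about 1 group in 20, and 2 were marked. E2f2 in model 4 was at 5.36 CPM, above the next model library at 3.13 CPM. Cdt1 in control 1 was at 0.899 CPM, below the next control at 1.59 CPM. The call of E2f2 was kept in each of 24 alternatives, and Cdt1 was called in none of them.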

How the results depend on the processing

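The 45 tested members were refitted under 24 alternatives (Bub1b under 22, since it had too few counts with the replicate block and without models 7 and 8), and counts of called members stayed within 1.5 times the main counts of 15 higher and 8 lower. They ran from 11 higher (library totals, without Ccnd3, Mcm3, Mcm4 and Pcna) to 18 (DESeq2, with E2f7, Mybl2 and Plk1), and from 6 lower (replicate block) to 9 (library totals, upper-quartile factors or without model 1, each adding Cdk1). The median log2 fold change of all genes was −0.23 with library totals, −0.14 with upper-quartile factors, 0.24 with DESeq2 and 0.29 without the filter, so values under these settings are read against that shift. Of the values of called members, 516 kept their direction and call and 34 lost the call; none turned round. Of those of uncalled members, 497 were unchanged in call and direction, 9 gained a call and 22 turned round without a call.

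No regular pairing of the libraries by replicate number was seen: correlations of deviations of same-numbered libraries were 0.363, −0.282, −0.342, −0.00485, −0.0372 and −0.103. Model 1 alone correlated best with the control of its own number. So few correlations cannot show that the numbers pair nothing. With the replicate block over numbers 1 to 6, 13 members were higher and 6 lower, Mcm3, Tyms and Cdkn1c (−1.30, adjusted p = 0.0526 in edgeR) lost the call and Bub1b was not among the genes tested. The count of called pairs was 7. It was 0 with the replicate block, where 64 sign flips allow no p below 0.03125, and 4 to 7 when 1 library was left out (4 without control 4, model 2 or model 4). With the block, the ratios of Ccnd1 to Ccnd2, Ccnd1 to Ccnd3 and Ccne1 to Ccne2 had this lowest p. So had those of Cdkn1b to Cdkn1c, Cdkn2c to Cdkn2d and Cdc25a to Cdc25b. None of them passed after adjustment over the 10 pairs. The 0 therefore does not show that the ratios were lost. Why fewer pairs passed with 1 library left out was not tested.

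The uncalled values that turned round (log2) were as follows. With library totals Ccnb2 was at −0.16, Cdkn1b at −0.12 and Mcm2 at −0.10, and with upper-quartile factors Ccnb2 was at −0.11 and Cdkn1b at −0.027. Ccne1 was at 0.018 with the length and GC offset and 0.16 without models 3 and 4, Ccne2 at −0.051 with limma-voom, and E2f1 at 0.024 with the replicate block and 0.031 without models 7 and 8. With 1 library left out, Ccnb2 ran from −0.14 to 0.22, Birc5 from −0.51 to 0.10, Ccnd1 from −0.32 to 0.12, Ccne1 from −0.33 to 0.0090, Ccne2 from −0.061 to 0.52 and Rrm1 from −0.22 to 0.19.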
